A study of Mus musculus with 4 samples.

Results

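In J774 cells treated with proteasome inhibitors, 10 genes that the unfolded protein response of the endoplasmic reticulum (ER) is known for were followed, namely *Hspa5* (NM_022310), *Hsp90b1* (NM_011631), *Dnajb9* (NM_013760), *Sdf2l1* (NM_022324), *Herpud1* (NM_022331), *Xbp1* (NM_013842), *Pdia4* (NM_009787), *Calr* (NM_007591), *Edem1* (NM_138677) and *Creld2* (NM_029720). They were chosen by name, and every array probe whose transcript accession carries one of these symbols in the mouse RefSeq table was taken. This gave 10 of 20133 genes and 11 of 39429 probes, since *Dnajb9* has a second probe, and all 10 genes were well above background on all 4 arrays. J774, which the labels give as J774.1, is a mouse monocyte-macrophage cell line. One culture received the solvent DMSO, and the others received MG132, epoxomicin or ONX0914 at 1 μM, all for 4 hours. MG132 is a peptide aldehyde that inhibits the proteasome, epoxomicin is a peptide epoxyketone directed at the 20S proteasome, and ONX0914 is directed at the β5 and β5i subunits. The treatment label of the last array names ONX-0912, whereas its title begins with ONX and the treatment protocol names ONX0914, and it is called ONX0914 here. The Methods name a human array design, but the scanner headers give a mouse design.

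Each condition was measured on 1 array, and all 4 arrays lay on 1 slide. No difference below therefore has a replicate check, no test was possible and no *P* value is given. A signal is the brightness of a spot after background subtraction within its array. A difference is on the log2 scale, after the 75th percentile of each array (a signal between 1453 and 1683) had been subtracted, and a gene is called higher or lower at a 2-fold difference, which is 1 on this scale. Repeat spots of a probe on the same array had a median SD of 0.0556 to 0.0615 (log2 scale), a spread that holds the error of printing and scanning but not that between cultures. Of the 9 macrophage markers with a probe, all were well above background on every array. Of 14 markers of other cell types, 10 were not well above background on any array. The T cell gene *Cd3e* and the neutrophil gene *Elane* were above it on all 4 arrays, *Pdgfra* on 2, and the epithelial keratin gene *Krt8* with MG132 and epoxomicin only, with signals of 4.16 on the DMSO array and 37.8, 121 and 5.29 with MG132, epoxomicin and ONX0914. The signals of the 14 markers summed to 3216 on the DMSO array and 2932, 3180 and 3422 with the inhibitors in the same order, and those of the macrophage markers to 413393, 304733, 345147 and 389082. Whether these markers have a part in any result was not tested.

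The unfolded protein response is the program by which a cell answers misfolded protein in the ER. Its sensors are IRE1, which splices the messenger of *Xbp1*, ATF6, which is cut in the Golgi and becomes a transcription factor, and PERK, which phosphorylates the initiation factor eIF2α and thereby favors translation of ATF4. The first and second of these arms raise ER chaperones, folding enzymes and the machinery of ER-associated degradation (ERAD), by which misfolded proteins are returned to the cytosol and destroyed by the proteasome. ATF4 is not particular to the ER, because other eIF2α kinases also lead to it, and its targets include stress regulators such as CHOP (*Ddit3*) and many genes of amino acid metabolism. Secretory cells rely on this program most heavily, and macrophages, which secrete cytokines and lysosomal enzymes, use it as well.

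The stretches of promoter that carry the best known elements of these arms are shown for the genes on which the contrast turns, 5′ to 3′ on the strand of the gene, from RefSeq (GRCm38.p6). Capitals mark the ER stress response element (ERSE, CCAAT and CCACG with 9 bases between them), its relative ERSE-II (ATTGG and CCACG with 1 base between them) or the composite element through which ATF4 acts together with C/EBP proteins (TGATGNAAN), each in either orientation. The first 5 are from the genes followed here, and the last 4 are examples from the 12 targets of ATF4 with a composite match, picked with their values known.
Hspa5, chr2:34772005-34772063, plus strand: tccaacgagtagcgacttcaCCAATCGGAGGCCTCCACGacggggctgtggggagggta
Hsp90b1, chr10:86705513-86705676, minus strand: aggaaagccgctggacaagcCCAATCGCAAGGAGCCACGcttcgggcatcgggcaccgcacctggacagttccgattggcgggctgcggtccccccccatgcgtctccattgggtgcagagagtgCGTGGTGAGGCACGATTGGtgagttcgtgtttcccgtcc
Calr, chr8:84847055-84847113, minus strand: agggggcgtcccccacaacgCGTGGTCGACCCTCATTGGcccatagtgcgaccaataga
Creld2, chr15:88819500-88819558, plus strand: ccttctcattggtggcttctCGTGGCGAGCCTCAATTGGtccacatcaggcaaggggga
Herpud1, chr8:94386296-94386407, plus strand: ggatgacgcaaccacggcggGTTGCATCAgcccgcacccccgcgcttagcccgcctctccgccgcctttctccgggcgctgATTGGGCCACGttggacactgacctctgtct
Slc7a11, chr3:50443633-50443699, minus strand: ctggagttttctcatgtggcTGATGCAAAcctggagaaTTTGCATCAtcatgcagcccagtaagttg
Atf3, chr1:191183416-191183464, minus strand: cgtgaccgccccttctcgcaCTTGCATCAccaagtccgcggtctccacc
Asns, chr6:7693210-7693252, minus strand: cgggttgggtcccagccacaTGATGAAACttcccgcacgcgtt
Nupr1, chr7:126625553-126625601, minus strand: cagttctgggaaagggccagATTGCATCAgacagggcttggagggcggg

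In windows from 250 bases before to 50 bases after the start of the gene, an exact ERSE was found in 4 of the 10 genes and in 39 of 32851 RefSeq promoter windows (0.119%). *Hsp90b1* holds 2 of them, in opposite orientations. The ERSE-II of *Herpud1* lies at −52 to −42 from the start, and 12 windows in all (0.0365%) hold this element. With either element, 5 of the 10 genes had a match, against 51 windows of all (0.155%) and 0 of the 31 ATF4 target genes that have a window. Such matches were not particular to the 10. They were also found in 5 of 18 other ER folding genes (27.8%) and 2 of 14 other ERAD genes (14.3%) with a window. The ATF4 composite element gave the opposite picture. It was found in 12 of these 31 ATF4 genes (38.7%) and in 3.95% of all windows, and *Herpud1*, where it lies at −113 to −105, was the only one of the 10 genes with a match. None of the 10 windows held the unfolded protein response element (TGACGTGG, in 0.676% of all windows) or the cAMP response element (TGACGTCA, in 1.79%), whose first 6 letters are the same. The matches of different elements in the 10 windows did not overlap. A match describes the letters of a window and not the binding of a factor, and the lack of one says nothing about a factor. The elements and the gene lists both come from earlier knowledge of these pathways. The shares are therefore not independent evidence for the lists or for the elements.

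**Figure D1:**
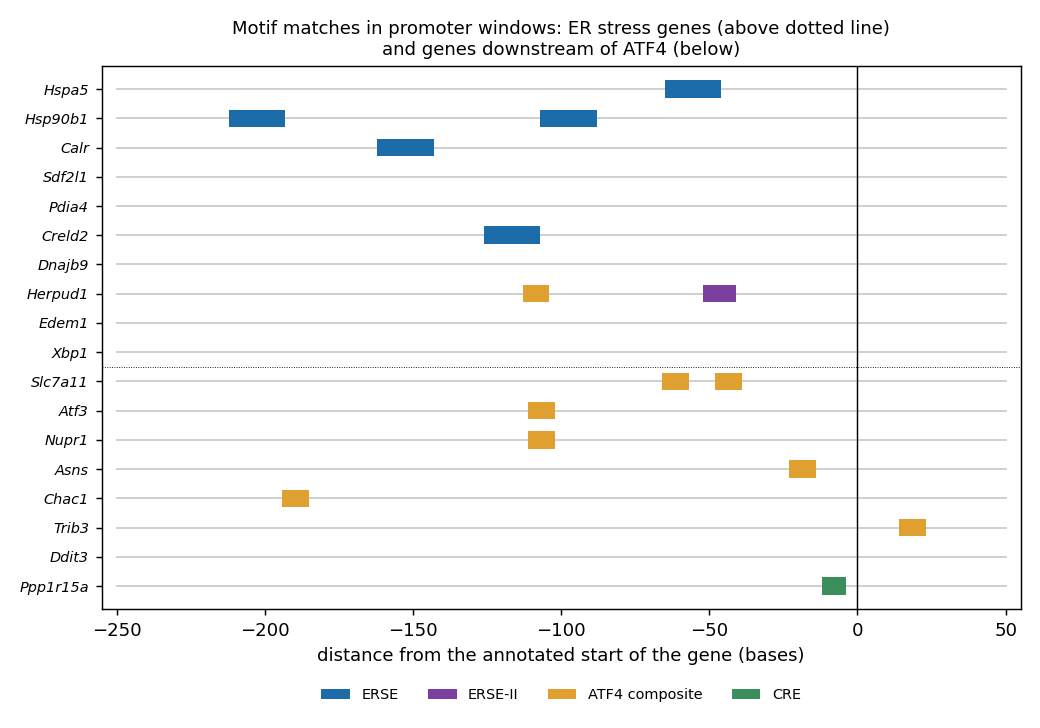
Positions of the ERSE, ERSE-II, ATF4 composite and cAMP response elements in the promoter windows, with the distance from the start of the gene in bases on the x axis. Each gene has its own line, and each mark stands for a match. *Hspa5*, *Hsp90b1*, *Calr* and *Creld2* carry ERSE matches, and *Herpud1* carries an ERSE-II and an ATF4 composite match. None of the ATF4 target genes shown carries an ERSE. All of them carry composite matches except *Ppp1r15a*, which has a cAMP response element only, and *Ddit3*, which has no match.

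Of the 10 genes, *Herpud1* and *Dnajb9* were the only ones at least 2-fold higher with any inhibitor, and none was 2-fold lower. *Herpud1* encodes an ER membrane protein that helps to assemble the ERAD machinery and is known to answer both the ER-specific arms and ATF4. Its signal was 6425 on the DMSO array and 26077, 31323 and 22943 with MG132, epoxomicin and ONX0914. All 3 inhibitor arrays thus stood well above the DMSO array. The log2 differences were 2.21 (4.62-fold), 2.26 (4.79-fold) and 1.87 (3.66-fold) with MG132, epoxomicin and ONX0914. Only 2.02% of genes (272 of 13462) were at least 2-fold higher with all 3 inhibitors. In RNA from a whole culture, more cells carrying a transcript and more of it per cell cannot be told apart.

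*Dnajb9* encodes ERdj4, a J-domain cochaperone of BiP inside the ER, and is a well-known target of spliced XBP1. Its signal was 1411 on the DMSO array and 3051, 4820 and 1733 with MG132, epoxomicin and ONX0914. The differences were 1.30 (2.46-fold), 1.75 (3.36-fold) and 0.33 (1.26-fold) with MG132, epoxomicin and ONX0914, the last below the threshold. The second, dimmer probe of the gene, with signals of 93.6, 214, 325 and 129 in the same order, gave 1.38, 1.77 and 0.51. Both probes thus placed epoxomicin first, MG132 next and ONX0914 last.

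*Hspa5* encodes BiP, the HSP70 of the ER lumen that holds the sensors inactive and is the most widely used marker of ER stress. Its signal was 111689 on the DMSO array and 153283, 154163 and 155204 with MG132, epoxomicin and ONX0914. The 3 inhibitor arrays lay close to each other and above the DMSO array. Differences of 0.64 (1.56-fold), 0.44 (1.36-fold) and 0.51 (1.43-fold), in that order, were all below 2-fold.

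The other 2 chaperones of the lumen were below DMSO with MG132 and epoxomicin. *Hsp90b1*, which encodes the ER paralog of HSP90 (GRP94), had signals of 95589 on the DMSO array and 75836, 79598 and 102844 with MG132, epoxomicin and ONX0914. Its differences were −0.15, −0.29 and 0.14. *Calr*, which encodes calreticulin, the lectin chaperone that binds glycoproteins and calcium, had signals of 60366 on the DMSO array and 34746, 39462 and 62625 with MG132, epoxomicin and ONX0914. For this gene the MG132 and epoxomicin arrays stood together below the DMSO and ONX0914 arrays, with differences of −0.61, −0.64 and 0.09. With *Hprt* as the only scaling, the MG132 difference of *Hsp90b1* turned to 0.055.

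Folding enzymes and cofactors of the lumen were also below DMSO with MG132 and epoxomicin and above it with ONX0914, in each case by less than 2-fold. *Pdia4* encodes a protein disulfide isomerase (ERp72), and its signal was 4779 on the DMSO array and 4011, 4175 and 6334 with MG132, epoxomicin and ONX0914. The differences were −0.07, −0.22 and 0.44, of which the first turned to 0.083 under normexp background correction and to 0.14 with *Hprt* as the only scaling. *Sdf2l1*, which encodes a partner of BiP and ER J-domain proteins, had signals of 8689 on the DMSO array and 6119, 5787 and 9783 with MG132, epoxomicin and ONX0914, and differences of −0.32, −0.61 and 0.21. For both genes the ONX0914 array was the highest of the 4.

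*Creld2* encodes a secreted, disulfide-rich ER protein and is a target of ATF6. It is the only one of the 10 genes whose probe was printed 10 times, so its arrays can be compared with the spread between spots. The mean signal was 39211 on the DMSO array and 29044, 29234 and 42503 with MG132, epoxomicin and ONX0914, and the SD between spots was 0.0576 to 0.0624 on the log2 scale. After scaling, the spots covered 4.50 to 4.69 on the DMSO array, 4.23 to 4.42 on the MG132 array, 4.01 to 4.23 on the epoxomicin array and 4.62 to 4.84 on the ONX0914 array (log2 scale). No spot of the MG132 or epoxomicin array reached the lowest spot of the DMSO array, while the spots of the DMSO and ONX0914 arrays overlapped. The differences were −0.25, −0.45 and 0.15 with MG132, epoxomicin and ONX0914. Spots of one array share one RNA sample and say nothing about the spread between cultures.

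*Edem1* encodes a lectin-like ERAD protein that helps to mark misfolded glycoproteins for disposal. With signals of 5547 on the DMSO array and 3063, 3814 and 4811 with MG132, epoxomicin and ONX0914, it was the only one of the 10 genes below DMSO with every inhibitor. Its differences were −0.67, −0.56 and −0.17. *Xbp1*, the transcription factor of the IRE1 arm, had signals of 25189, 26707, 26062 and 28439 in the same order, and differences of 0.27, 0.02 and 0.21. The epoxomicin value turned slightly negative (−0.048) when arrays were shifted to their medians and was −0.0040 in the authors' table. The probe could not be placed relative to the segment that IRE1 removes, so the spliced and unspliced messengers were not separated.

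**Figure D2:**
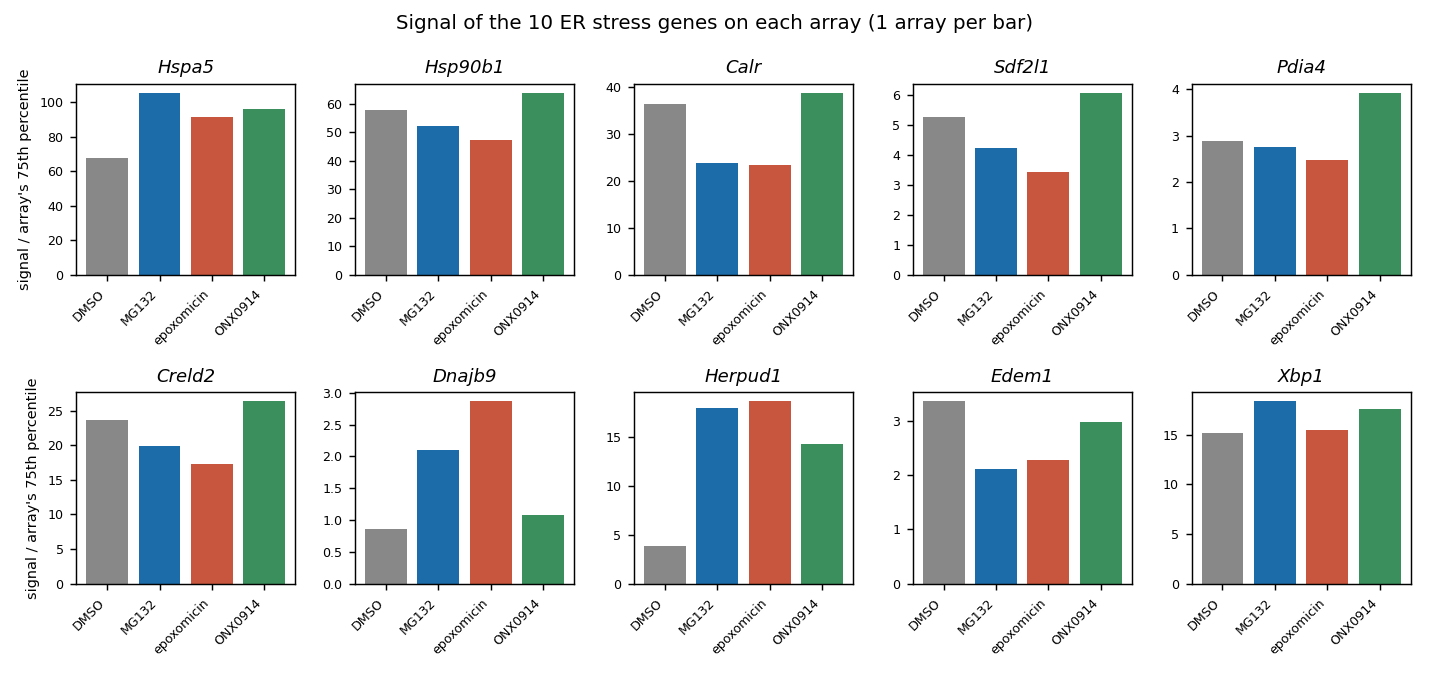
Scaled signal of each of the 10 genes on each of the 4 arrays, with *Dnajb9* shown by its brighter probe. The scaled signal is the signal divided by the percentile of its array that was used for scaling. *Herpud1* goes from 3.88 with DMSO to between 14.2 and 18.6 with an inhibitor, whereas *Calr* is at 23.9 and 23.4 with MG132 and epoxomicin and at 36.5 and 38.8 with DMSO and ONX0914.

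At the 2-fold threshold, 2 of the 10 genes were higher with MG132, where 7.24% of 13769 genes were higher. The same 2 were higher with epoxomicin (8.41% of 13869 genes), and only *Herpud1* with ONX0914 (3.27% of 13793 genes). None was lower, against 3.65%, 4.49% and 1.41% of all genes. The median difference of the 10 genes was −0.11, −0.25 and 0.21 with MG132, epoxomicin and ONX0914, and that of all genes −0.02, −0.04 and −0.01. The MG132 median was above 0 under normexp (0.033) and with *Hprt* as the only scaling (0.096). Without *Herpud1* and *Dnajb9*, the other 8 genes ranged from −0.67 to 0.64 for MG132, from −0.64 to 0.44 for epoxomicin and from −0.17 to 0.51 for ONX0914. With MG132, 4 of the 10 were above 0 (47.9% of all genes were). The count was also 4 with epoxomicin (46.3%) but 9 with ONX0914 (48.8%), and no sign of a single gene against DMSO changed with ONX0914 under any alternative. At 1.5-fold, *Hspa5* joined the higher genes with MG132 (14.9% of all genes). The lower ones at this threshold were *Calr* and *Edem1* with MG132 (12.9% of all genes) and *Calr* and *Sdf2l1* with epoxomicin (14.5%). With ONX0914, *Herpud1* remained the only higher gene (7.59% of all genes) and none was lower (5.21%). The DMSO array is common to all 3 comparisons, and any error in it is carried into each.

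**Figure D3:**
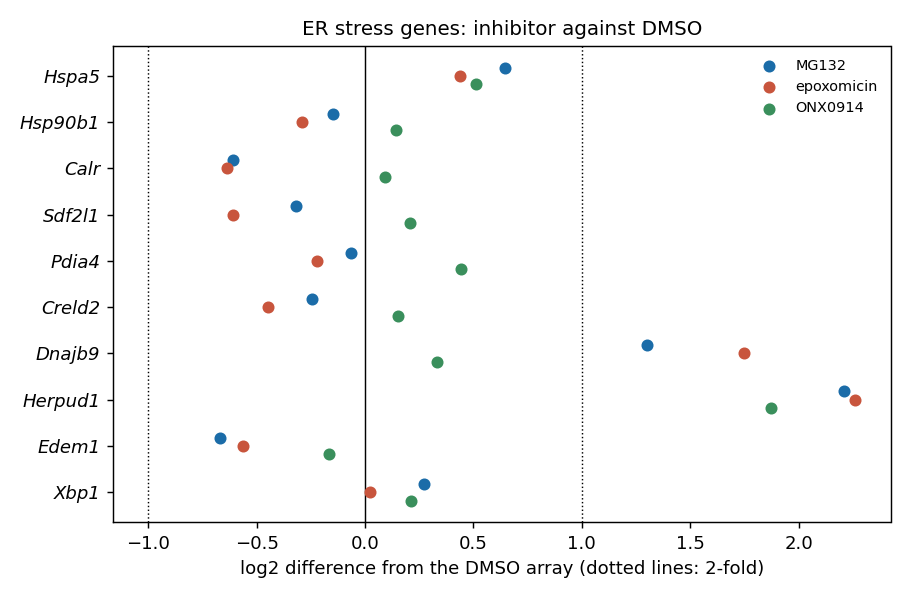
Log2 difference of each inhibitor array from the DMSO array for the 10 genes, with one point per inhibitor and dotted lines at 2-fold. *Herpud1* lies beyond the line at 1 with all 3 inhibitors and *Dnajb9* with MG132 and epoxomicin, and the other 8 genes lie between −0.67 and 0.64.

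Other genes of the pathway were compared at the same threshold, at which 7.24%, 8.41% and 3.27% of all genes were higher and 3.65%, 4.49% and 1.41% lower, so that a count of 0 or 1 in a list of 8 to 21 genes is close to these shares. Of 8 sensors and activators, none was 2-fold higher or lower with any inhibitor, with medians of 0.13, 0.10 and 0.20 for MG132, epoxomicin and ONX0914. The first turned negative under normexp (−0.085) and without scaling (−0.058), and the second under normexp (−0.12). *Ern1*, which encodes IRE1α, came nearest to the threshold, with signals of 551 on the DMSO array and 909, 1007 and 703 with MG132, epoxomicin and ONX0914 and differences of 0.91, 0.84 and 0.39, and with *Hprt* as the only scaling it passed the threshold with MG132 (1.11) and epoxomicin (1.01). *Atf6* had differences of 0.53, 0.74 and 0.25, and *Eif2ak3*, which encodes PERK, −0.28, −0.03 and −0.40. *Mbtps1*, the protease that first cuts ATF6, gave −0.16, −0.33 and −0.09.

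Of 21 other ER folding genes, none passed 2-fold in either direction, and their medians were −0.30, −0.29 and 0.08. At 1.5-fold, 5 of them were lower with MG132 (12.9% of all genes) and 4 with epoxomicin (14.5%). *Txndc5*, a thioredoxin-domain disulfide isomerase, gave −0.88 (−1.07 without scaling), −0.79 and −0.26, and *Dnajc10*, a disulfide reductase of the ERAD path, −0.80, −0.78 and −0.38. The ER chaperone partners *Dnajc3* (−0.59, −0.52 and −0.11) and *Dnajb11* (−0.21, −0.19 and 0.05), the disulfide isomerase *Pdia6* (−0.20, −0.37 and 0.17) and the secreted ER stress protein *Manf* (−0.32, −0.43 and 0.23) also had their highest difference with ONX0914. *Hyou1*, which encodes the large HSP70 relative GRP170, gave 0.10, −0.10 and 0.51. The upper end was *Ero1a*, the oxidase that feeds disulfide bonds to the isomerases, with 0.46, 0.61 and 0.32.

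Of 20 other ERAD genes, 1 was 2-fold higher with each inhibitor, and it was *Ubxn4*, an ER membrane adaptor of the segregase p97. Its signals were low, at 35.2 on the DMSO array and 63.5, 74.5 and 76.2 with MG132, epoxomicin and ONX0914, and its differences were 1.04, 1.06 and 1.15. These calls depended on the processing, since the differences were −0.79, −0.94 and −0.998 under normexp, those with MG132 and epoxomicin were 0.94 and 0.98 with a shift to the median and 0.94 and 0.98 with quantile normalization, and that with MG132 was 0.85 without scaling. Under a normexp fit without outlier spots, chosen after seeing the data, the differences of *Ubxn4* were 0.53, 0.38 and 0.32. The medians of these 20 genes were −0.04, −0.11 and 0.11, and with *Hprt* as the only scaling the first and second were 0.16 and 0.056. The first was also above 0 under normexp (0.040). *Ube2g2*, a ubiquitin-conjugating enzyme of ERAD, gave 0.67, 0.68 and 0.26, while *Edem3*, a relative of *Edem1*, gave −0.61, −0.39 and −0.37 and the channel-like *Derl3* −0.48, −0.45 and −0.19. Of 16 genes for entry into the ER and signal peptide removal, none passed 2-fold, and their medians were −0.36, −0.34 and 0.02, the last between −0.03 and 0.13 over the alternatives. *Spcs3*, a subunit of signal peptidase, was the lowest of them, with signals of 10254 on the DMSO array and 4537, 6525 and 8738 with MG132, epoxomicin and ONX0914 and differences of −0.99, −0.68 and −0.19, the first of which passed 2-fold under some scalings (−1.18 without scaling). *Tram1*, a translocon protein, gave −0.78, −0.64 and −0.09, and at the upper end the translocon genes *Sec62* and *Ssr3* gave 0.27, 0.27 and 0.04 and 0.14, 0.21 and 0.18.

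The genes listed as targets of ATF4 behaved otherwise. They were listed from earlier knowledge, and whether ATF4 raised any of them in these cells was not tested. *Atf4* itself had signals of 102412 on the DMSO array and 195971, 220379 and 241575 with MG132, epoxomicin and ONX0914, and differences of 1.12, 1.08 and 1.27. All 3 values were slightly over 2-fold, except that the MG132 value was 0.94 without scaling. Of the stress regulators on the ATF4 list, 10 of 11 counted genes were at least 2-fold higher with MG132, 10 of 12 with epoxomicin and 8 of 12 with ONX0914. Over all genes, 7.24%, 8.41% and 3.27% were higher. None of the counted regulators was lower, against 3.65%, 4.49% and 1.41% of all genes. With epoxomicin, 1 of the 10 was *Fgf21*, which was well above background on that array only (signal 34.2). Its difference of 1.19 is a bound, and it entered the comparison only through that array. *Stc2* likewise entered only through the ONX0914 array, with a bound of 0.77. The medians of the stress regulators were 3.16, 2.84 and 2.37. *Ddit3*, which encodes the transcription factor CHOP, had signals of 998 on the DMSO array and 7835, 6864 and 8684 with MG132, epoxomicin and ONX0914 and differences of 3.16, 2.76 and 3.16. *Trib3*, a pseudokinase induced by ATF4 and CHOP, gave 3.47, 3.38 and 3.09, and *Ppp1r15a*, which encodes the phosphatase subunit GADD34 that reverses eIF2α phosphorylation, gave 3.19, 3.05 and 2.40. The range among these regulators was wide. *Gdf15*, a secreted stress cytokine, went from 244 with DMSO to 12898, 12340 and 3871 with MG132, epoxomicin and ONX0914, and *Atf5* and *Cebpb*, at the low end, differed by 0.93, 0.98 and 0.47 and by 1.04, 0.84 and 0.67. *Atf3* gave 4.39, 4.57 and 2.91. *Chac1*, which degrades glutathione, gave 3.81 with MG132 and 4.38 with epoxomicin, and its spot on the ONX0914 array was marked as an outlier. A gene needed a value on all 4 arrays to be counted, so *Chac1* is in none of the counts or medians of differences.

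Of 22 measured ATF4 targets in amino acid supply, 14 were 2-fold higher with MG132 (7.24% of all genes), 14 with epoxomicin (8.41%) and 10 with ONX0914 (3.27%). Their medians were 1.26, 1.24 and 0.95, and none was lower, against 3.65%, 4.49% and 1.41% of all genes. Some calls of this list near the threshold were lost under the alternatives, and others were gained. *Slc7a11*, the cystine transporter, had signals of 27.7 on the DMSO array and 1206, 1231 and 491 with MG132, epoxomicin and ONX0914 and differences of 5.63, 5.45 and 4.19. *Asns*, asparagine synthetase, gave 1.79, 1.80 and 1.25, and the glycine transporter *Slc6a9* gave 3.51, 3.39 and 2.42. The serine enzyme gene *Psph* and the arginine and lysine transporter *Slc7a3* were at the low end, with −0.48, −0.58 and −0.12 and with 0.35, 0.35 and 0.14.

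Set side by side, 24 of 33 ATF4 targets were at least 2-fold higher with MG132 against 2 of the 10 ER genes. The counts were 24 of 34 against 2 with epoxomicin and 18 of 34 against 1 with ONX0914. Over all genes, 7.24%, 8.41% and 3.27% were higher, and in a list of 10 genes a count of 1 or 2 is only slightly above these shares. The 24 with epoxomicin include *Fgf21*, whose difference there is a bound. The median of the ATF4 targets was 1.44, 1.30 and 1.03, which exceeded the median of the ER genes by 1.55, 1.56 and 0.82. *Hspa5*, the usual marker of ER stress, was exceeded by 28 of the 33 ATF4 targets with MG132, by 31 of 34 with epoxomicin and by 26 of 34 with ONX0914. *Herpud1*, the one gene of the 10 with a match to the ATF4 composite element, was exceeded by 10 of them with each inhibitor. Outside the 10, the ER folding gene *Txndc5* (−0.88, −0.79 and −0.26) and the ERAD gene *Faf2* (0.28, 0.36 and 0.27) also had a composite match and lay below 2-fold. Among the 10, the 4 genes with an ERSE in their window (*Hspa5*, *Hsp90b1*, *Calr* and *Creld2*) all lay below 2-fold with each inhibitor. Of the counted ATF4 targets with a composite match, 7 of 8 were 2-fold higher with MG132, 8 of 9 with epoxomicin and 6 of 8 with ONX0914. Of the ATF4 targets whose window held none, 13 of 18, 12 of 18 and 9 of 19 were 2-fold higher in the same order. The 8 with epoxomicin include *Fgf21*, and *Chac1*, which also has a match, is in none of these counts. These counts describe lists that were chosen with results of these arrays known, and no test stands behind the comparison of the lists.

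**Figure D4:**
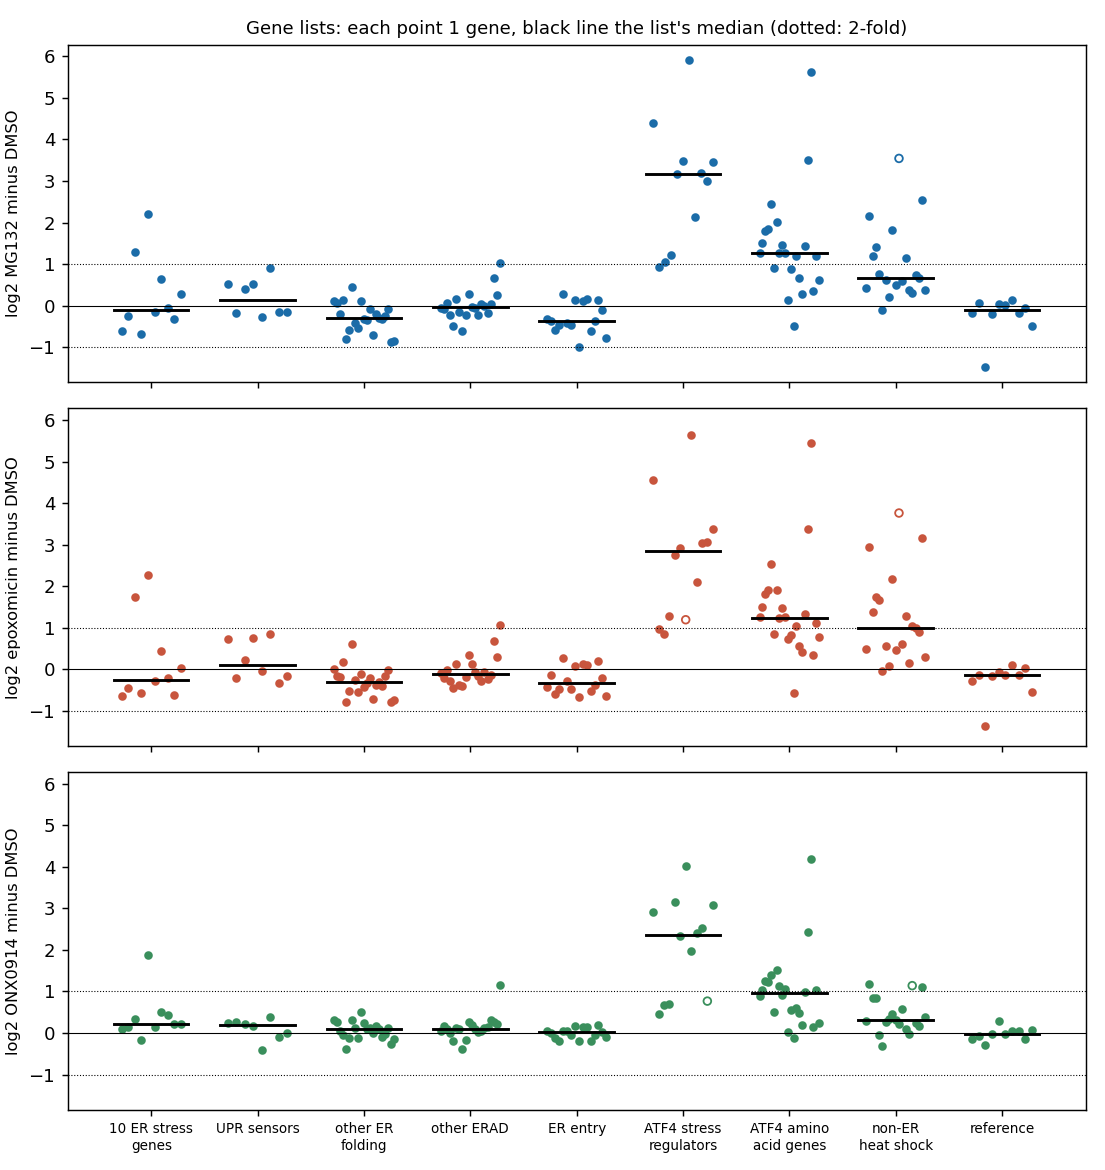
Log2 difference from DMSO for every gene of the lists, one panel per inhibitor, each point standing for one gene and the black line for the median of its list, with dotted lines at 2-fold. The ATF4 stress regulators have medians of 3.16, 2.84 and 2.37, and the ER lists have medians between −0.36 and 0.21.

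Relatives of the ER chaperones outside the ER were also compared. *Hsp90aa1*, the inducible cytosolic HSP90, had signals of 40571 on the DMSO array and 125901, 185890 and 54233 with MG132, epoxomicin and ONX0914 and differences of 1.82, 2.17 and 0.46, where its ER paralog *Hsp90b1* gave −0.15, −0.29 and 0.14. The constitutive *Hsp90ab1* gave 0.50, 0.46 and 0.32. Among the HSP70 genes, *Hspa8* gave 0.38, 0.15 and 0.09. *Hspa1a* was not well above background with DMSO or ONX0914 and was at least 11.7-fold higher with MG132 and at least 13.6-fold higher with epoxomicin, and its probe may also read the near-identical *Hspa1b*. *Dnajb1*, a cytosolic J-domain protein, gave 0.76, 1.66 and −0.05. Its order of inhibitors was that of the ER gene *Dnajb9*, but also that of *Hsp90aa1*, *Hsph1* and *Bag3*, and not that of *Hspa8* or *Hsp90ab1*. Of 19 heat shock genes outside the ER, 7 were 2-fold higher with MG132 (7.24% of all genes), 9 with epoxomicin (8.41%) and 3 with ONX0914 (3.27%). These genes are cytosolic apart from the mitochondrial chaperonin genes *Hspd1* and *Hspe1*. With ONX0914, 1 of the 3 was *Hspb8*, which was well above background on that array only (signal 31.6). Its difference of 1.14 is a bound. At the upper end of the list were *Hsph1* (2.53, 3.17 and 1.11) and *Bag3* (2.17, 2.94 and 1.18). The lowest were *Dnajb4* (−0.11, −0.04 and −0.32, but −1.11, −1.35 and −1.53 under normexp) and *Fkbp4* (0.20, 0.08 and 0.35).

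The inhibitors were also compared with each other in 3 pairs, at the same dose and time and without use of the DMSO array. Epoxomicin and MG132, which differ in their reactive group, were close for the ER genes. No gene of the 10 differed by 2-fold (0.785% of genes were higher with epoxomicin and 0.719% lower), the median was −0.15, and the range was −0.29 for *Sdf2l1* to 0.45 for *Dnajb9*, with 3 of 10 above 0 (50% of all genes). Without scaling this median was 0.064. ONX0914 against MG132 gave no 2-fold difference either (1.07% higher and 3.05% lower over all genes), but the median was 0.34, and *Calr* (0.70), *Sdf2l1* (0.53), *Pdia4* (0.51), *Edem1* (0.50), *Creld2* (0.40) and *Hsp90b1* (0.29) were all above 0. That made 6 of 10 above 0, where 52.6% of all genes were. *Dnajb9* (−0.97), *Herpud1* (−0.33), *Hspa5* (−0.13) and *Xbp1* (−0.06) were below 0. Against epoxomicin, ONX0914 had a median of 0.41 with a range of −1.41 for *Dnajb9* to 0.82 for *Sdf2l1*, and *Dnajb9* was the only one of the 10 past 2-fold (1.56% higher and 4.38% lower over all genes). Of the 10 genes, 8 were above 0 (54.7% of all genes). *Edem1*, *Calr* and *Creld2* were 0.40, 0.73 and 0.60 higher with ONX0914 than with epoxomicin.

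Of the 21 other ER folding genes, 19 were above 0 with ONX0914 against MG132, and their median was 0.40. Of the 16 genes for entry into the ER, 14 were above 0 in this comparison, with a median of 0.34. The ATF4 targets went the opposite way, with 32 of 34 below 0 and a median of −0.42. *Ddit3* was level between the 2 arrays (0.00), and *Gdf15* (−1.89), *Atf3* (−1.48) and *Slc7a11* (−1.44) were at the lower end. Values below 0 were not particular to the ATF4 targets. The heat shock genes outside the ER had 17 of 20 below 0 (median −0.36), and the sensors and activators 5 of 8 (−0.15). The other ERAD genes had 16 of 20 above 0 (median 0.13). Against DMSO, 451 of all genes were 2-fold higher and 194 lower with ONX0914, and 997 and 503 with MG132. With 1 array per inhibitor, these differences between compounds cannot be told apart from differences between cultures or arrays, and no interval can be given for them.

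**Figure D5:**
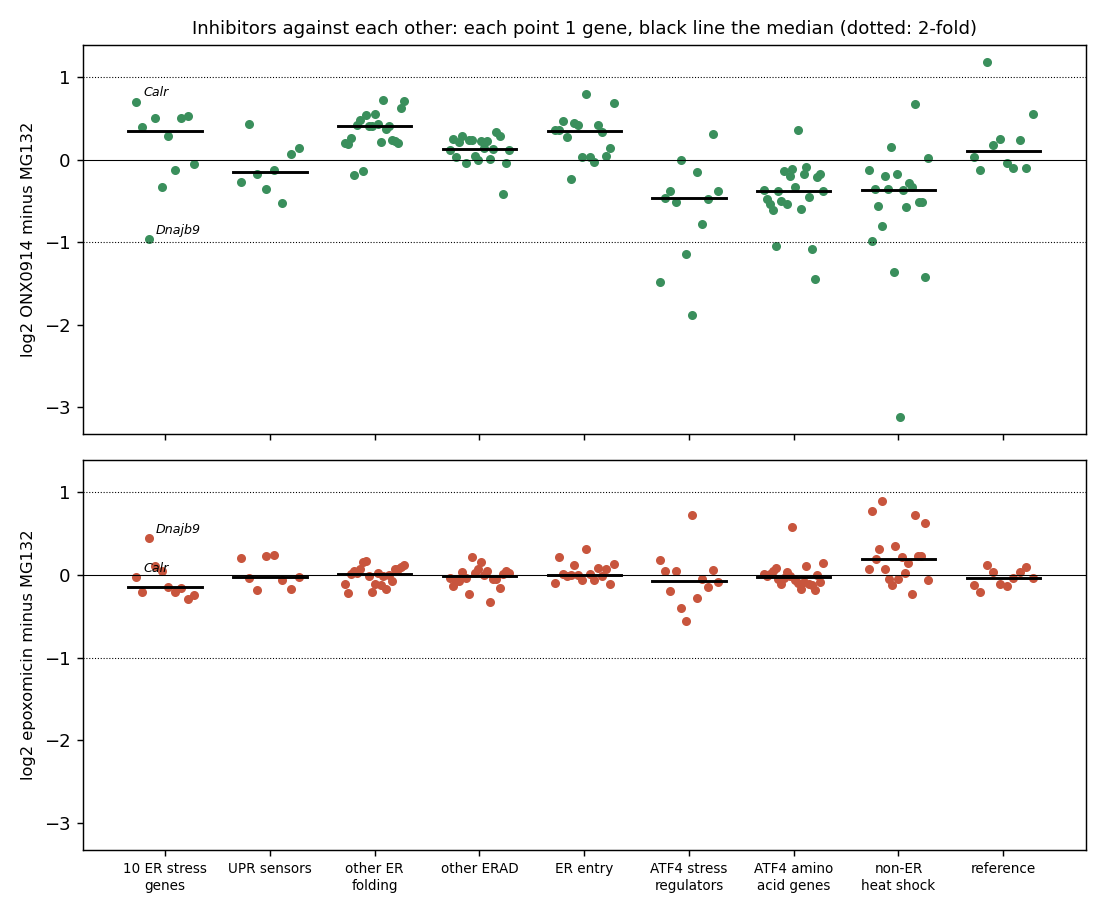
Log2 differences between inhibitors for every gene of the lists, ONX0914 minus MG132 in the upper panel and epoxomicin minus MG132 in the lower panel, each point standing for one gene and the black line for the median of its list. In the upper panel the medians are 0.34 for the 10 ER genes, 0.40 for the other ER folding genes and −0.47 for the ATF4 stress regulators, and in the lower panel they are −0.15, 0.02 and −0.07.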

How the data were processed

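Total RNA of J774 cells was hybridized in a single color (Cy3) to 4 arrays, 1 each for DMSO, MG132, epoxomicin and ONX0914. Spot intensities, deposited by the authors as Feature Extraction 10.7.1.1 output, had been background-subtracted within each array and not scaled between arrays. A GeneSpring table of log2 values, also deposited and centered on each probe's median, served as an alternative.

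Control spots and spots marked as outliers (159 to 194 per array) were left out. No spot was saturated, and 60.3% to 63.1% of spots were well above background. The 75th percentile of each array was subtracted from the log2 intensity, and spots of one probe were averaged. Of 39429 probes, 26581 (67.4%) were named through the RefSeq table of GRCm38.p6. Where a gene had several probes, the brightest on average stood for it. Genes dim on both arrays of a comparison were left out of it. Where 1 array was dim, the higher of the probe's own signal and the array's lowest signal well above background (14.7 to 20.3) stood as a bound there. With so few arrays, their number limits the precision.

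The 10 genes and all lists were chosen with earlier results of these data known. Genes to be named were the 10 genes, *Atf4*, *Ddit3*, *Atf3*, *Trib3*, *Chac1*, *Ppp1r15a*, *Asns*, *Slc7a11*, *Ern1*, *Eif2ak3*, *Atf6*, *Hyou1*, *Pdia6*, *Manf*, *Dnajc3*, *Dnajb11*, *Hspa8*, *Hspa1a*, *Hsp90aa1*, *Hsp90ab1* and *Dnajb1*, and the 2 highest and 2 lowest genes of each other list by mean difference among genes well above background on all arrays. *Nupr1*, *Col6a1*, *Hspd1*, *Hspe1*, *Faf2*, *Fgf21*, *Hspb1*, *Hspb8*, *Pck2*, *Stc2* and the cell type markers given with values were named after their values were seen. No probe could be named for *Pycr1* or *Hspa1b*. Promoter windows were searched for exact letters on both strands.

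The alternatives were normexp background correction (offset 50, on the median pixel brightness), *Hprt* as the only scaling, the 75th percentile over detected probes, quantile normalization, no scaling, median scaling, the authors' log2 table, averaging of all probes of a gene, the processed signal in place of bounds, 2 other filters on dim probes and a 1.5-fold threshold. A difference counted as moved under an alternative at a change of 0.087, the largest median SD between spots times the square root of 2. The calculations were tested on simulated data. R 4.3.3 with limma 3.58.1 and Python 3.11.15 with numpy 2.4.6, pandas 2.3.3 and matplotlib 3.10.9 were used.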

Additional observations from a re-analysis of the deposited data

How the results depend on the processing

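The counts of ER genes at least 2-fold higher (2, 2 and 1 of 10) were the same under every alternative that kept the threshold, and at 1.5-fold 3, 2 and 1 genes were higher and 2, 2 and 0 lower in the order MG132, epoxomicin, ONX0914. The median with MG132 (−0.11) was 0.033 under normexp, 0.096 with *Hprt* scaling, −0.20 with a shift to the median and −0.29 without scaling. The median with epoxomicin (−0.25) was −0.060 under normexp and −0.084 with *Hprt* scaling, and that with ONX0914 (0.21) was 0.31 under normexp. Between ONX0914 and MG132 the median (0.34) was 0.44 with a shift to the median, 0.17 with *Hprt* scaling and 0.49 without scaling. Between ONX0914 and epoxomicin it was 0.28 with *Hprt* scaling, and between epoxomicin and MG132 it was 0.064 without scaling. The excess of the ATF4 median with MG132 (1.55) was 1.34 under normexp and 1.37 without a filter, and with epoxomicin (1.56) it was 1.66 in the authors' table, with the mean over probes and with the processed signal in place of bounds. These scalings also moved all genes. The median of all genes with MG132 was −0.27 under normexp, 0.19 with *Hprt* scaling, −0.12 with a shift to the median and −0.20 without scaling, and the genes at least 2-fold higher and lower with MG132, 997 and 503 in the values reported, were 470 and 2525, 1411 and 288, 849 and 687, and 739 and 903 in the same order. A normexp fit without outlier spots, chosen after seeing the data, gave 601 and 283. None of the 10 genes reversed a difference past the 2-fold threshold. Among the list genes, *Ubxn4* did so under normexp with each inhibitor (−0.79, −0.94 and −0.998). Under normexp, *Pck2* with ONX0914 (1.06 to −0.049) and *Hspb1* with epoxomicin (1.04 to −0.53) also reversed. *Pck2* fell there from 1.26 to 0.13 with MG132 and from 1.25 to 0.10 with epoxomicin. It is among the ATF4 targets with a composite match that were counted as higher with each inhibitor. Under the normexp fit without outlier spots, *Ubxn4*, *Pck2* and *Hspb1* fell below 2-fold in these comparisons but did not reverse. The differences there were 0.53, 0.38 and 0.32 for *Ubxn4* and 0.93, 0.905 and 0.753 for *Pck2*. For *Hspb1* with epoxomicin the value was 0.61. No paired analysis was possible because each condition has 1 array. The limits are the single array per condition, the DMSO array shared by the comparisons, and list genes at low signal, whose differences can be bounds.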

Other observations

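Activated IRE1 also cleaves messengers other than that of *Xbp1*. Of 8 genes known as such substrates, 6 could be compared, and their median difference from DMSO was −0.16, −0.26 and −0.17 with MG132, epoxomicin and ONX0914. These medians depended on the processing. Over the alternatives they ranged from −0.47 to 0.15 with MG132, from −0.56 to 0.0047 with epoxomicin and from −0.24 to −0.01 with ONX0914, lowest when genes had to be well above background on all arrays. *Bloc1s1*, the substrate used most often as a readout, had signals of 12117 on the DMSO array and 6542, 7918 and 9685 with MG132, epoxomicin and ONX0914, with differences of −0.70, −0.64 and −0.29. *Pmp22* gave −0.60, −0.64 and −0.33, while *Hgsnat* gave 0.30, 0.81 and −0.09 and *Sparc* 0.15, 0.04 and −0.24. *Col6a1* was not well above background with DMSO and was higher with MG132 by at least 5.42-fold, with epoxomicin by at least 5.31-fold and with ONX0914 by at least 3.70-fold. Under a normexp fit without outlier spots, chosen after seeing the data, its differences were 0.94, 0.82 and 0.81.

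Among 10 reference genes, *Gusb*, which encodes a lysosomal glycosidase made in the ER, differed by −1.48, −1.36 and −0.30 with MG132, epoxomicin and ONX0914, with signals of 34060 on the DMSO array and 10738, 13480 and 26949 with MG132, epoxomicin and ONX0914. It was the only one of the 10 at least 2-fold lower with MG132 or epoxomicin. *Rplp0*, a ribosomal protein gene, gave 0.14, 0.10 and 0.04, *Pgk1*, a glycolytic gene, 0.04, −0.06 and 0.30, and *Ywhaz*, which encodes a 14-3-3 protein, −0.50, −0.54 and 0.06.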
